A study of Mus musculus with 19 samples.

Results

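The semaphorin, plexin, neuropilin, netrin, Unc5, slit, robo, ephrin and Eph receptor genes were examined in the infrarenal aorta of mice 7 days after infusion of porcine pancreatic elastase (PPE) or saline. Members were taken by symbol (Sema3 to Sema7, Plxn, Nrp1 and Nrp2, Ntn1 to Ntn5, Unc5a to Unc5d, Slit1 to Slit3, Robo1 to Robo4, Epha, Ephb, Efna and Efnb genes). This set of symbols was chosen with earlier results of these data known. On the array, 64 of the 30141 genes measured by a probe set with a single gene symbol met this rule, 33 of them ligands and 31 receptors. Nrp1, Ntn3 and Sema4a share their probe sets with other gene names, and 1 further symbol of the rule has no probe set listed here, so these were not analysed here.

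These families were first described as guidance cues of growing axons and are used again in the vessel wall. Semaphorins signal through plexins, with neuropilins as co-receptors for most class 3 members. Netrins bind DCC, neogenin and Unc5 receptors, slits bind robos, and ephrins, which are tethered to the membrane, bind Eph receptor kinases on neighbouring cells. In arteries ephrin-B2 marks arterial identity, and in immune cells Sema4D and the Sema7A receptor plexin C1 take part in cell activation and adhesion.

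The mice were C57BL/6J animals operated on at 10 weeks of age, and each array held RNA from the aorta of 1 mouse. The PPE groups received elastase at 2.5 U/mL for 5 min at 120 mmHg, and the sham groups received saline in the same operation. There were 7 male PPE and 5 male sham arrays in the male cohort, and 4 female PPE and 3 female sham arrays in the female cohort. Values are log2 intensities as deposited, so a difference of 1 is a 2-fold change, and the number of arrays limits the precision of each value. Array medians lay between 5.61 and 5.85 in males and between 6.17 and 6.31 in females, so levels were compared only within a cohort. Male sham 4, male sham 5 and male PPE 1 lay farthest from the other arrays of their groups, with a root mean square deviation over all genes of 0.44, 0.36 and 0.46 against 0.22 to 0.35 in the other 16 arrays, and counts of members are given with and without them. Of the smooth muscle markers, Acta2 lay near the top of the scale on all arrays, at 17.47 or more, and Myocd was as low as 6.43 in male PPE aortae, below the median signal of all genes (6.46).

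In males 24 of the 64 guidance genes passed the test after PPE, 20 lower and 4 higher, where 19.6% of all genes passed. Of the 20 lower genes 14 encode ligands and 6 receptors, and the largest falls were those of Ntn1, Sema5a, Sema3c, Efnb2 and Slit3. The higher genes were Sema4d, Plxnc1, Sema7a and Sema4b. In females 8 members passed, where 4.22% of all genes did. Of these, 5 were lower (Sema3c, Ntn1, Sema5a, Efnb2 and Plxna4) and 3 higher (Sema4d, Plxnc1 and Sema7a). All 8 had the same call in males, an overlap that was not counted over all genes. Calls are limma tests with a Benjamini-Hochberg adjusted p below 0.05 over all genes. In whole tissue, fewer cells of a type and less RNA per cell cannot be told apart.

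These counts were set beside those of all genes. The 20 lower members are 31.2% of the set, where 9.98% of all genes were called lower in males, and the 4 higher members are 6.25%, where 9.67% of all genes were called higher. In females the 5 lower members are 7.81%, against 1.45% of all genes, and the 3 higher members are 4.69%, against 2.77%. Brighter probe sets are called more often, and 42 of the 64 members lay at or above the median signal of all genes. Among those 42 members 42.9% were called lower in males, against 15.4% of the genes of that brightness, and 9.52% higher, against 16.5%. The corresponding shares in females were 11.9% lower, against 2.56%, and 7.14% higher, against 5.08%. The median log2 difference of the members was −0.10 in males, beside 0.01 over all genes, and −0.05 in females, beside −0.02. Without the 3 arrays that stood apart, 17 members were called lower and 3 higher in males, with 5868 of all genes called in either direction, against 5922. These arrays stood apart over all genes. Over the members alone male sham 4 deviated by 0.35, and male sham 5 and male PPE 1 by 0.25 each. Male sham 3 deviated by 0.35 and male sham 1 by 0.32 over the members.

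The female counts depended on single arrays. Without female sham 2 only 1 member was called lower and 1 higher. The lower count was 3 without female sham 1 or female sham 3, and 2 without female PPE 1, female PPE 2 or female PPE 3. Without the 3 male arrays that stood apart, which enter through the shared variance, 8 members were called lower and 4 higher in females. With quantile normalization 8 were called lower and 2 higher. Over all genes 2454 were called in females without those 3 male arrays and 1525 with quantile normalization, against 1273 in the main fit. Totals over all genes were not counted for the fits without 1 array.

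**Figure D1:**
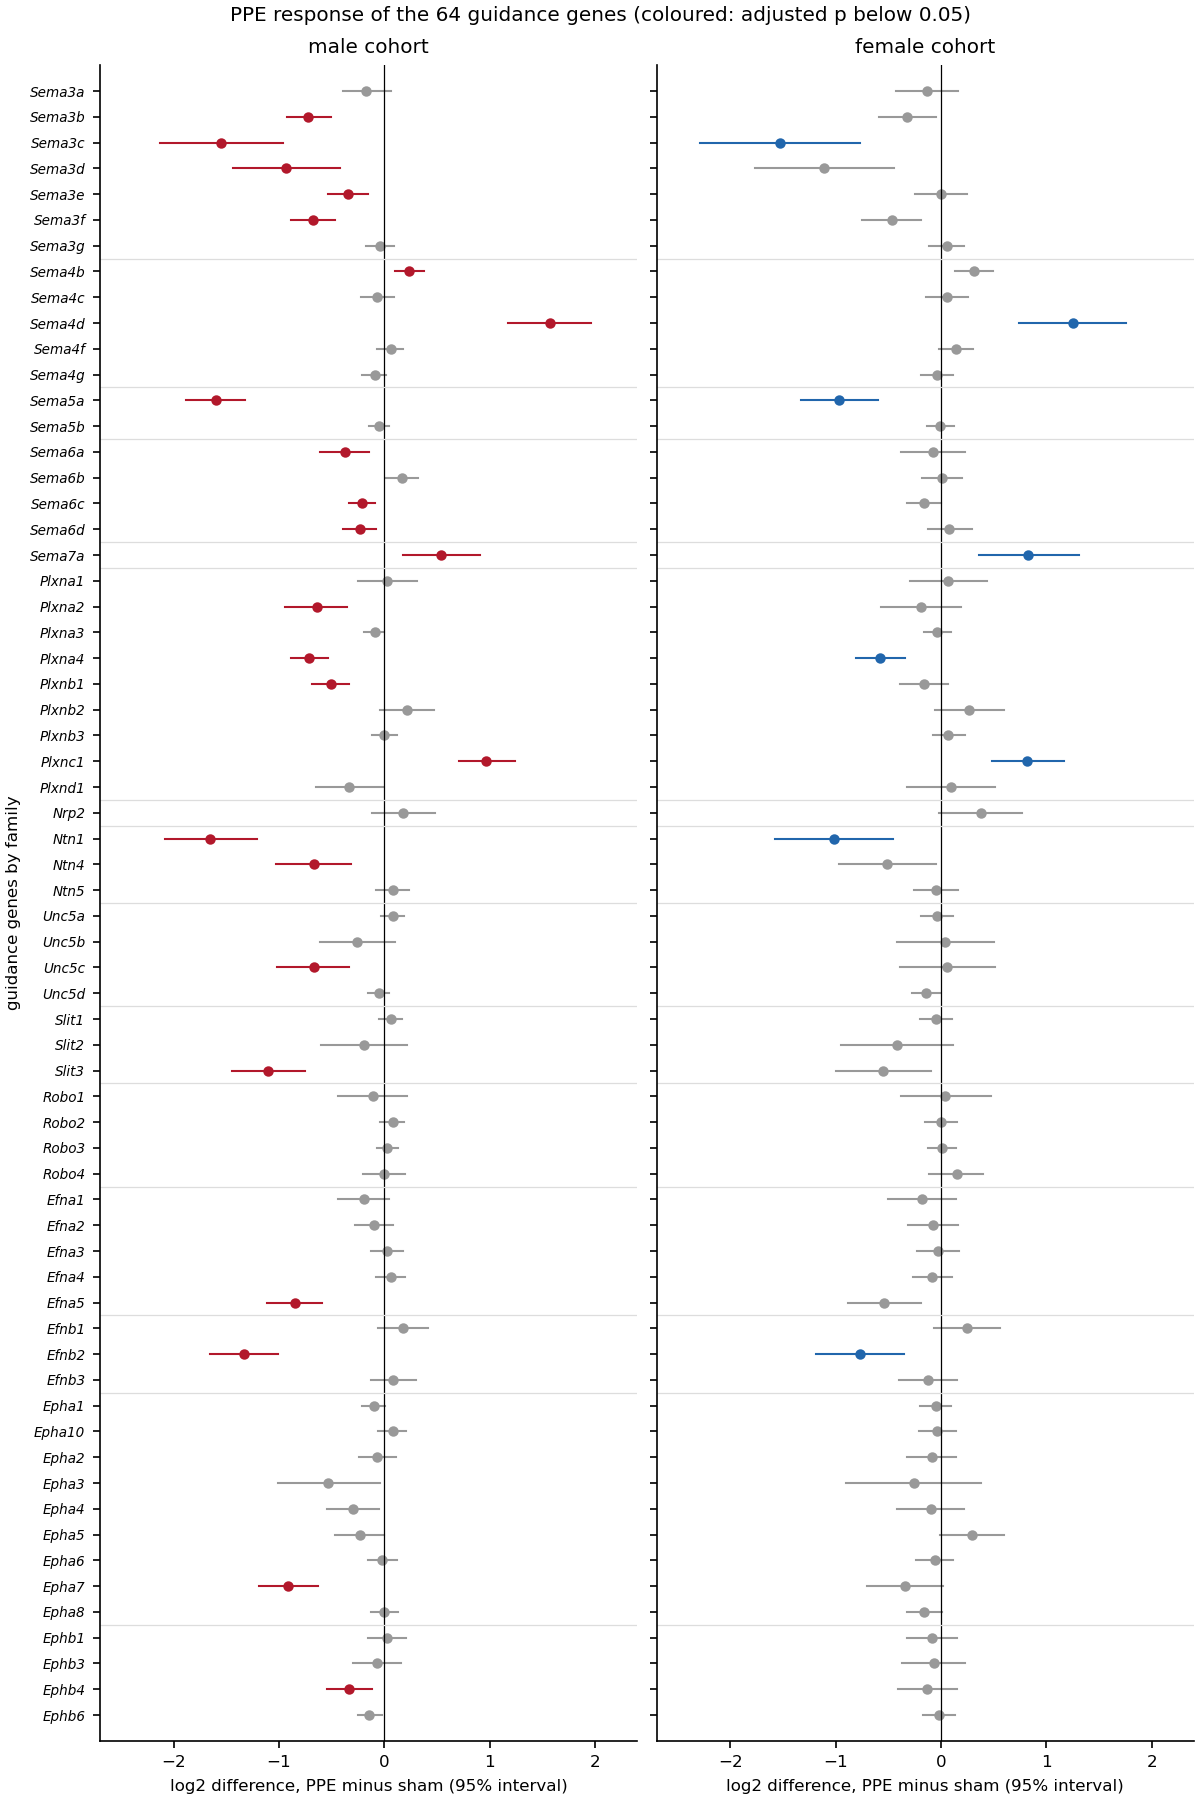
Log2 difference between PPE and sham (x axis) for each of the 64 guidance genes (y axis, by family), in the male cohort on the left and the female cohort on the right, with 95% intervals. Coloured genes have an adjusted p below 0.05; 20 lie below and 4 above 0 in males, and 5 lie below and 3 above 0 in females.

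Sema4d, Plxnc1 and Sema7a were higher after PPE in both cohorts. Sema4d encodes a transmembrane semaphorin of T cells and other leukocytes, also known as CD100, that binds plexin B1, plexin B2 and CD72. In males Sema4d had a log2 intensity of 9.25 at the lowest, 9.76 at the median and 10.42 at the highest in PPE aortae, against 8.23, 8.45, 8.42, 7.74 and 8.09 in sham aortae. The groups did not overlap, and the difference was 1.57 ± 0.18 (SE, 2.98-fold, adjusted p = 8.42e-06, n = 7 and 5). In females Sema4d had 10.18, 10.16, 10.19 and 9.61 in PPE aortae, against 8.74, 8.68 and 8.93 in sham aortae. The female groups did not overlap either, although PPE array 4 lay below the other 3, and the difference was 1.25 ± 0.24 (2.38-fold, adjusted p = 0.0074, n = 4 and 3).

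Plxnc1 encodes plexin C1, the plexin that binds Sema7A. In males Plxnc1 had 9.15 at the lowest, 9.60 at the median and 9.70 at the highest in PPE aortae, against 8.80, 8.72, 8.62, 8.11 and 8.45 in sham aortae. All PPE arrays lay above all sham arrays, with a difference of 0.97 ± 0.13 (1.96-fold, adjusted p = 2.29e-05). In females Plxnc1 had 10.13, 10.31, 9.85 and 9.94 in PPE aortae, against 9.32, 9.18 and 9.20 in sham aortae. These groups were also separated, with a difference of 0.82 ± 0.16 (1.77-fold, adjusted p = 0.00885). That call was lost without female sham 2 (adjusted p = 0.0534).

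Sema7a encodes a semaphorin held on the cell surface by a lipid anchor, which binds integrin beta 1 as well as plexin C1. In females Sema7a had 9.20, 9.00, 9.01 and 8.75 in PPE aortae, against 8.50, 8.03 and 7.94 in sham aortae. The female groups were separated, with a difference of 0.83 ± 0.23 (1.78-fold, adjusted p = 0.0438). In males Sema7a had 8.15 at the lowest, 8.70 at the median and 9.18 at the highest in PPE aortae, against 7.80, 8.42, 8.70, 8.02 and 8.18 in sham aortae. The male groups overlapped. Sham arrays 2, 3 and 5 lay inside the PPE range, and PPE arrays 2, 4, 5 and 6 lay inside the sham range or at its upper end. The difference was 0.54 ± 0.17 (1.46-fold, adjusted p = 0.0335). The male call was lost in 6 of the 19 fits that left out 1 array and without the 3 arrays that stood apart (0.39, adjusted p = 0.223), and the female call in 11 of 19. The male call was also lost with only the groups compared (adjusted p = 0.0694) and with array weights (adjusted p = 0.081), and the female call with quantile normalization (adjusted p = 0.0745) and with centred arrays (adjusted p = 0.0655). Itgb1, which encodes integrin beta 1, was at −0.25 in males and −0.27 in females without a call.

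Sema4b, a further transmembrane semaphorin of class 4, was higher by 0.24 ± 0.07 in males (adjusted p = 0.0141). In females its PPE and sham arrays were separated, at 8.13 to 8.31 against 7.85 to 8.04, with a difference of 0.31 ± 0.09 and adjusted p = 0.05, which is not below the threshold. It passed with dim genes left out (adjusted p = 0.0329), with array weights (adjusted p = 0.00136) and without the 3 arrays that stood apart (adjusted p = 0.0226). With quantile normalization the female difference of Sema4b was 0.22 and further from a call (adjusted p = 0.152). The male call of Sema4b was lost with the replicate number as a block (adjusted p = 0.0603). Of the Sema4D receptors, Plxnb1 was lower in males (−0.51 ± 0.09, adjusted p = 0.00025), and Plxnb2 was at 0.22 ± 0.12 without a call. Cd72, which encodes a further receptor of Sema4D, was higher in males by 2.56 ± 0.38 (5.88-fold, adjusted p = 7.41e-05). In females Cd72 stood at 1.37 ± 0.49 (adjusted p = 0.148), Plxnb1 at −0.16 ± 0.11 and Plxnb2 at 0.27 ± 0.16, none of them called.

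**Figure D2:**
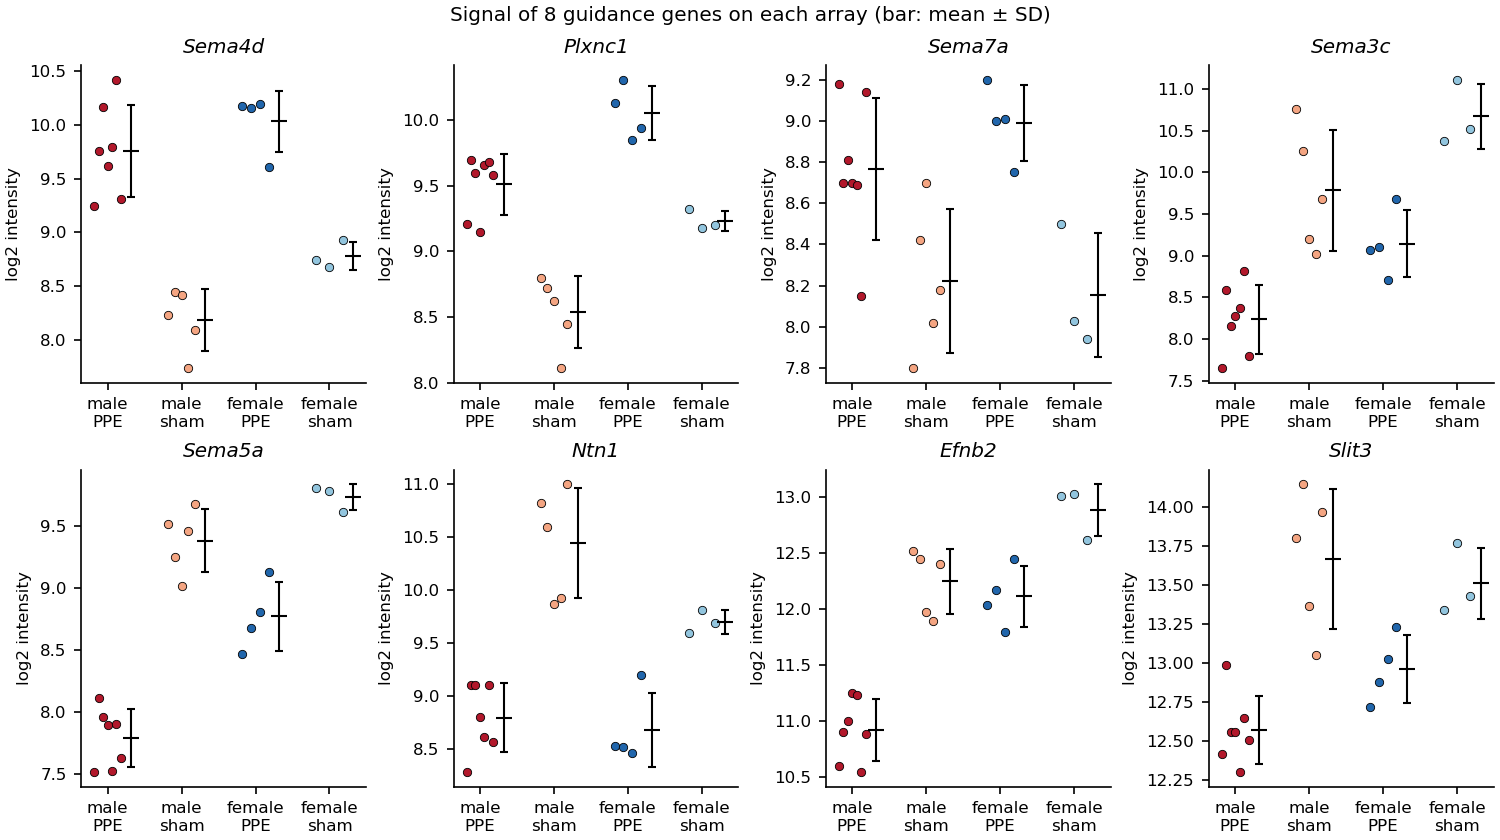
Log2 intensity (y axis) of 8 guidance genes on each array (points), for male PPE, male sham, female PPE and female sham aortae, with the mean ± SD of each group beside its points. Sema4d and Plxnc1 are higher in every PPE array than in every sham array of the same cohort, and Sema3c, Sema5a, Ntn1, Efnb2 and Slit3 are lower in every PPE array.

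The promoter windows of Sema4d, Plxnc1 and Sema7a are shown because these genes were higher in both cohorts. The windows are RefSeq sequences of GRCm38.p6 from 250 bases before to 50 bases after a start site, at chr13:51748761-51749060 on the minus strand for the first of 3 listed starts of Sema4d, at chr10:94944796-94945095 on the minus strand for Plxnc1, and at chr9:57939862-57940161 on the plus strand for Sema7a. Capitals mark matches to any of 4 motifs searched on both strands, which did not overlap each other here. These were the CArG box of serum response factor, the interferon gamma activated site TTCNNNGAA, the core of the interferon-stimulated response element (GAAA repeated after a gap of 2 bases), and the E-box CANNTG.
Sema4d: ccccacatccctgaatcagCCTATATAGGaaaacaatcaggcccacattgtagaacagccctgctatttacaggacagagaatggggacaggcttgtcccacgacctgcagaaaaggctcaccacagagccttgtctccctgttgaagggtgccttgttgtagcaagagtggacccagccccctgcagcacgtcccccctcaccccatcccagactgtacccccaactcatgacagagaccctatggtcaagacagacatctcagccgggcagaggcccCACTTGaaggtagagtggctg
Plxnc1: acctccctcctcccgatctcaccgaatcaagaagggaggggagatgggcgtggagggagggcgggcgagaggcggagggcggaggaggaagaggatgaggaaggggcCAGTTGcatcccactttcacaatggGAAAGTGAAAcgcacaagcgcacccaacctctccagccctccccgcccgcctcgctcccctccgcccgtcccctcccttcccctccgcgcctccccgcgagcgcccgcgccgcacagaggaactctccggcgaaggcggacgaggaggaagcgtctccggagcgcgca
Sema7a: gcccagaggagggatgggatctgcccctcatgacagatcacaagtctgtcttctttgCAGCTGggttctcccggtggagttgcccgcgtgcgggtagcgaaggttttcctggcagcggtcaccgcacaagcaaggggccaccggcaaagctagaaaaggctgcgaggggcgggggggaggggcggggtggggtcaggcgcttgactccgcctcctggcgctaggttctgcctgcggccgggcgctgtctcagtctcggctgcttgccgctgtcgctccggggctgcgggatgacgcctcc
The Sema4d window held a CArG box (CCTATATAGG, starting at −231 from the start site) and an E-box, and the Plxnc1 window held an E-box and a match to the response element core (GAAAGTGAAA, starting at −118). The Sema7a window held 1 E-box and none of the other motifs. Of the 4 genes higher in males, the first window held a CArG box in 1, an interferon gamma activated site in 0, a response element core in 1 and an E-box in 3. Of all 27025 genes with a window, 1.57% hold a CArG box, 8.47% an interferon gamma activated site, 3.49% a response element core and 72.1% an E-box in the first window. A match is a description of letters and not of a bound site.

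Class 3 semaphorins are secreted, and 5 of the 7 measured were lower in males. Sema3c encodes a ligand needed for septation of the cardiac outflow tract in mice. In males Sema3c had 7.65 at the lowest, 8.28 at the median and 8.81 at the highest in PPE aortae, against 10.76, 10.25, 9.20, 9.02 and 9.68 in sham aortae. The sham arrays were widely spread but did not overlap the PPE arrays, and the difference was −1.55 ± 0.28 (2.92-fold lower, adjusted p = 0.000502). In females Sema3c had 9.07, 9.10, 8.71 and 9.68 in PPE aortae, against 10.38, 11.11 and 10.52 in sham aortae. The groups were separated here as well, with a difference of −1.53 ± 0.36 (2.89-fold lower, adjusted p = 0.0216), and the call was lost in 5 of the 19 fits that left out 1 array.

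The other lower class 3 genes in males were Sema3d (−0.93 ± 0.24, adjusted p = 0.0095), Sema3b (−0.72 ± 0.10, adjusted p = 3.5e-05), Sema3f (−0.68 ± 0.10, adjusted p = 7.81e-05) and Sema3e (−0.34 ± 0.09, adjusted p = 0.0111). Sema3e, whose product binds plexin D1 without a neuropilin, lost its call with arrays centred on their medians (adjusted p = 0.0619) and with quantile normalization (adjusted p = 0.0622). In females Sema3d stood at −1.11 ± 0.31 (adjusted p = 0.0549) and Sema3f at −0.47 ± 0.13 (adjusted p = 0.0504), both just short of the threshold, and Sema3b at −0.32 ± 0.13 (adjusted p = 0.209). For Sema3b, Sema3d and Sema3f all PPE arrays lay below all sham arrays in both cohorts. Of all genes, 4.68% in males and 8.86% in females were separated in this direction. Sema3a and Sema3g were not called in either cohort, with differences between −0.17 and 0.06. Sema3a, Sema3c, Sema3d and Sema3e lie on chromosome 5 between 12383161 and 17730268 (GRCm38.p6), and 3 of these 4 genes were lower in males.

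Sema5a, which encodes a transmembrane semaphorin with thrombospondin repeats, had the lowest adjusted p of the members in males. In males Sema5a had 7.51 at the lowest, 7.89 at the median and 8.11 at the highest in PPE aortae, against 9.52, 9.25, 9.02, 9.46 and 9.68 in sham aortae. The gap between the groups exceeded the spread within either group, and the difference was −1.60 ± 0.13 (3.03-fold lower, adjusted p = 6.88e-07). In females Sema5a had 8.47, 8.68, 8.81 and 9.13 in PPE aortae, against 9.81, 9.79 and 9.62 in sham aortae. The female groups were separated, with a difference of −0.97 ± 0.17 (1.96-fold lower, adjusted p = 0.00515), and the call held in all 19 fits that left out 1 array. Its paralogue Sema5b was at −0.05 in males and −0.01 in females, not called in either cohort, with a mean of 5.72 over all arrays that lies below the median of all genes.

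The windows of Sema3c and Sema5a, semaphorins that were lower in both cohorts, lie at chr5:17574566-17574865 and chr15:32244563-32244862, both on the plus strand.
Sema3c: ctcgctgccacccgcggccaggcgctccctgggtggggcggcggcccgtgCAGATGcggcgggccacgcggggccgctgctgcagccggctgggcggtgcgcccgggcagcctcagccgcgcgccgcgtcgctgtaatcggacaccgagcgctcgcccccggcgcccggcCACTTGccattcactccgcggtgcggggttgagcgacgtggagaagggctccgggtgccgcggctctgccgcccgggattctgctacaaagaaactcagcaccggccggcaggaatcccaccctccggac
Sema5a: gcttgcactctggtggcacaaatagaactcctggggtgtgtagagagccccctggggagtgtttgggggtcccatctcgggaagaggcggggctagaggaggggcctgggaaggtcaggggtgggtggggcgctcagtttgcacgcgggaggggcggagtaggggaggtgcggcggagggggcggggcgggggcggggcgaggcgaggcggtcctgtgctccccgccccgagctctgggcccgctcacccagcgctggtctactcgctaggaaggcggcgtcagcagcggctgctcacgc
The Sema3c window held 2 E-boxes and none of the other motifs, and the Sema5a window held none of the 4. Guanine and cytosine made up 75.7% of the Sema3c window and 71.3% of the Sema5a window. They made up 56% of the first Sema4d window, 69% of the Plxnc1 window and 67.3% of the Sema7a window. Of the 20 genes lower in males, 15 had a window, of which 0 held a CArG box, 1 an interferon gamma activated site, 0 a response element core and 6 (40%) an E-box. The median share of guanine and cytosine was 68.3% in these 15 windows and 66.3% in the 4 windows of genes higher in males. It was 64% in the 36 windows of members not called in males and 56% in the 17969 windows of all tested genes. The lower genes are long, with a median span of 166 kb, against 74 kb for the 4 higher genes. The median span was 27.7 kb for members not called and 9.11 kb for all tested genes with coordinates.

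The class 6 semaphorins are transmembrane ligands of A plexins. In males Sema6a (−0.37), Sema6d (−0.23) and Sema6c (−0.21) were called lower, with adjusted p = 0.0229, 0.0324 and 0.0138, and Sema6b was at 0.17 without a call. With arrays centred on their medians none of the 3 remained called (adjusted p = 0.0934, 0.182 and 0.0739). None of the 4 was called in females, where values lay between −0.16 and 0.08.

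Among semaphorin receptors, 3 of 9 plexins were lower and 1, Plxnc1, was higher in males. Plxna4, a plexin A that pairs with neuropilins and also binds class 6 semaphorins, was the only receptor lower in both cohorts. In males Plxna4 had 8.05 at the lowest, 8.15 at the median and 8.37 at the highest in PPE aortae, against 9.18, 8.89, 8.82, 8.76 and 8.90 in sham aortae. These arrays were separated, with a difference of −0.71 ± 0.09 (1.64-fold lower, adjusted p = 1.16e-05). In females Plxna4 had 8.64, 8.77, 8.60 and 8.96 in PPE aortae, against 9.37, 9.45 and 9.14 in sham aortae. The groups were separated, with a difference of −0.58 ± 0.11 (1.49-fold lower, adjusted p = 0.00762), and the call was lost without female sham 2 (adjusted p = 0.0594).

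Plxna2, another plexin A, was lower in males by −0.64 ± 0.14 (adjusted p = 0.00262) with overlapping groups, and was not called without the 3 arrays that stood apart (−0.48, adjusted p = 0.0552). Plxnd1, the endothelial receptor of Sema3E, was at −0.33 ± 0.15 in males and 0.09 ± 0.20 in females without a call. The co-receptor Nrp2 was at 0.18 ± 0.14 (95% interval −0.12 to 0.48) in males and 0.38 ± 0.19 (−0.02 to 0.77) in females, without a call.

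Netrins are laminin-related secreted proteins, and Ntn1 had the largest fall of the members in males. In males Ntn1 had 8.28 at the lowest, 8.80 at the median and 9.10 at the highest in PPE aortae, against 10.82, 10.59, 9.87, 9.92 and 11.00 in sham aortae. The groups did not overlap, and the difference was −1.65 ± 0.20 (3.13-fold lower, adjusted p = 1.46e-05). In females Ntn1 had 8.53, 8.52, 8.46 and 9.20 in PPE aortae, against 9.59, 9.81 and 9.69 in sham aortae. PPE array 4 lay nearest to the sham arrays, the groups were separated, and the difference was −1.02 ± 0.27 (2.03-fold lower, adjusted p = 0.0373). That call was lost in 6 of the 19 fits that left out 1 array, each without a female array, and with arrays centred on their medians (adjusted p = 0.0672).

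Ntn4, a netrin of basement membranes that binds laminin, was lower in males (−0.67 ± 0.17, adjusted p = 0.00741) and stood at −0.51 ± 0.22 in females (adjusted p = 0.266). Of the netrin receptors, Unc5c was lower in males (−0.67 ± 0.16, adjusted p = 0.00608) and stood at 0.06 ± 0.21 in females (adjusted p = 0.946). The male call of Unc5c was lost with the replicate number as a block (adjusted p = 0.0756). Unc5b, the vascular Unc5 receptor, was at −0.26 ± 0.17 in males and 0.04 ± 0.22 in females, and Unc5a and Unc5d lay between −0.14 and 0.08. Neo1, which encodes neogenin, was lower in males by −0.39 ± 0.13 (adjusted p = 0.0457), and Dcc was at −0.02 in males and −0.08 in females without a call.

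Slit3 encodes a secreted ligand of robo receptors. In males Slit3 had 12.30 at the lowest, 12.56 at the median and 12.99 at the highest in PPE aortae, against 13.80, 14.15, 13.37, 13.05 and 13.97 in sham aortae. All PPE arrays lay below all sham arrays, PPE array 2 at 12.99 lay nearest to male sham 4 at 13.05, and the difference was −1.10 ± 0.17 (2.14-fold lower, adjusted p = 9.33e-05). In females Slit3 had 12.72, 12.88, 13.03 and 13.23 in PPE aortae, against 13.34, 13.77 and 13.43 in sham aortae. These groups were also separated, but the difference of −0.55 ± 0.22 did not pass (adjusted p = 0.204). Slit2 stood at −0.19 ± 0.19 in males and −0.42 ± 0.25 in females. None of the 4 robo genes was called by limma in either cohort, with 0 at an unadjusted p below 0.05, and Robo4, the robo of endothelium, had a 95% interval of −0.20 to 0.20 in males and −0.11 to 0.40 in females.

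Efnb2, the gene of the arterial ligand ephrin-B2, fell in both cohorts. In males Efnb2 had 10.54 at the lowest, 10.90 at the median and 11.25 at the highest in PPE aortae, against 12.52, 12.45, 11.97, 11.89 and 12.40 in sham aortae. The groups were separated, with a difference of −1.33 ± 0.15 (2.52-fold lower, adjusted p = 6.87e-06). In females Efnb2 had 12.04, 12.17, 11.79 and 12.45 in PPE aortae, against 13.01, 13.03 and 12.62 in sham aortae. These groups did not overlap, the difference was −0.77 ± 0.20 (1.71-fold lower, adjusted p = 0.034), and the call was lost in 5 of the 19 fits that left out 1 array and with centred arrays (adjusted p = 0.0815).

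Its receptor gene Ephb4, a marker of veins, was lower in males by −0.33 ± 0.10 (adjusted p = 0.0271) with overlapping groups, and lost the call in 4 of the 19 fits that left out 1 array. It also lost the call with centred arrays (adjusted p = 0.0868), with only the groups compared (adjusted p = 0.0525), with array weights (adjusted p = 0.0602) and without the 3 arrays that stood apart (adjusted p = 0.2). In females Ephb4 was at −0.13 ± 0.13 without a call. The other B ephrins, Efnb1 and Efnb3, were at 0.18 and 0.08 in males and 0.25 and −0.12 in females, none of them called. Of the 5 A ephrins only Efna5 was called in males, at −0.85 ± 0.12 (1.80-fold lower, adjusted p = 7.09e-05), and it stood at −0.54 ± 0.16 in females (adjusted p = 0.0761), with separated groups in both cohorts. Efna1, Efna3 and Efna4, which lie close together on chromosome 3 between 89271730 and 89338028, were not called in either cohort.

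Of the 13 Eph receptor genes measured, Epha7 was lower in males together with Ephb4, at −0.91 ± 0.13 (1.88-fold, adjusted p = 6.52e-05). In males Epha7 had 6.71 at the lowest, 7.10 at the median and 7.57 at the highest in PPE aortae, against 7.84 to 8.21 in sham aortae, without overlap. In females it stood at −0.34 ± 0.17 (adjusted p = 0.392), with overlapping groups. Epha3 stood at −0.53 ± 0.23 in males without a call (adjusted p = 0.136), and its male sham arrays were widely spread, at 13.48, 12.83, 14.00, 12.20 and 13.21. None of the 13 was called in females by limma, and 0 had an unadjusted p below 0.05.

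Signals of different probe sets are not comparable as transcript levels, and the following means describe only what the array measured. The brightest members of the families, averaged over all arrays, were Slit3 (13.09), Epha3 (13.03), Plxnb2 (12.05), Efnb2 (11.83), Nrp2 (11.14), Sema3d (10.16), Sema6a (9.46), Ntn1 (9.35), Efna5 (9.25), Sema4d (9.25), Ephb4 (9.12), Sema5a (8.72), Sema7a (8.57), Unc5b (8.50) and Robo1 (7.86). The 22 members below the median signal of all genes (6.46, with no detection call in the deposited table) included 2 called lower in males, Sema3e and Sema6c, and none called in females by limma, with 2 at an unadjusted p below 0.05. Over the 40 members not called in males the differences ran between −0.53 for Epha3 and 0.22 for Plxnb2. Over the 56 not called in females they ran between −1.11 for Sema3d and 0.38 for Nrp2.

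Separation of the arrays was a second description of the groups. In males 14 members (21.9%) had all PPE arrays below all sham arrays and 2 (3.12%) had all above, against 4.68% and 4.69% of all genes. In females 12 members (18.8%) had all PPE arrays below all sham arrays and 6 (9.38%) all above, against 8.86% and 11.0% of all genes. The share of lower members was above that of all genes in both cohorts, and the share of higher members was not.

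The difference between the PPE responses of the cohorts (male minus female) was tested by limma for each gene, and it was called for 0 of 64 members, where 0.541% of all genes were called, 0.0398% with a higher and 0.501% with a lower response in males. At an unadjusted p below 0.05, a level that 9.94% of all genes passed (2997 genes), there were 9 members, each with a more negative response in males: Unc5c (−0.74 ± 0.27, adjusted p = 0.309), Sema5a (−0.63), Epha7 (−0.57), Efnb2 (−0.56), Epha5 (−0.53), Sema3b (−0.40), Plxnb1 (−0.35), Sema3e (−0.34) and Sema6d (−0.32). The cohorts share no sham arrays, and array medians differed between them, so sex and cohort cannot be told apart here. Across the 64 members the log2 differences in males and females had r = 0.90 (Spearman's coefficient 0.72), across all genes 0.49 (0.32), which is a description over genes that are not independent replicates. The sign was the same in both cohorts for 45 of the 64 members, and for 17404 of all 30141 genes. The difference was larger in size in males for 43 members and for 16982 of all genes. The 5 members lower in both cohorts are 25% of the lower members in males and 100% of those in females, and the 3 higher in both are 75% and 100%. The same overlap was not counted over all genes, and a variance per gene shared by the cohorts enters both tests. These shares are therefore not set apart from those of other genes.

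**Figure D3:**
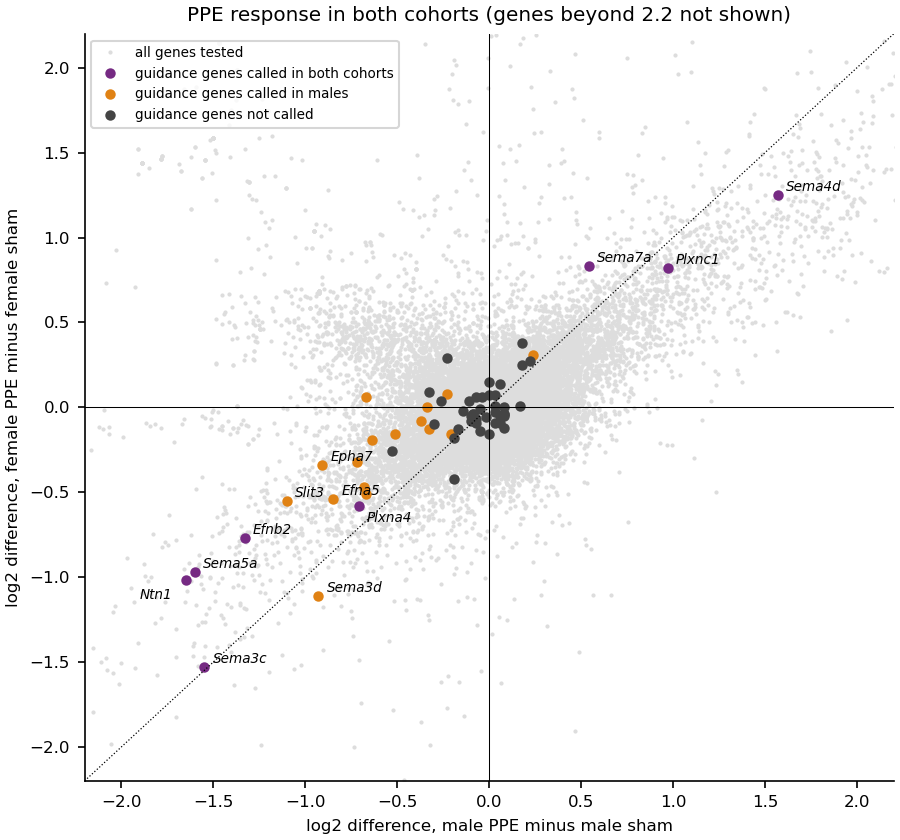
Log2 difference between PPE and sham in males (x axis) against that in females (y axis), for all genes tested (grey) and the 64 guidance genes (coloured by call); the dotted line marks equal differences. The 8 members called in both cohorts lie at the lower left and the upper right, and genes with a difference beyond 2.2 are outside the axes.

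Genes that act with these families were counted from a list of 57, of which 54 were measured. In males 22 of the 54 (40.7%) were lower and 9 (16.7%) higher, against 9.98% and 9.67% of all genes. Among all genes at or above the median signal, 15.4% were lower and 16.5% higher in males, and 2.56% and 5.08% in females. The list was not split by signal, and it was chosen with earlier results of these data known. The largest falls were those of Enah, an actin elongation factor (−1.36 ± 0.14, adjusted p = 3.34e-06), Mical2, which oxidises actin (−1.03 ± 0.16), and Arhgef12, whose product is bound by B plexins (−1.01 ± 0.08, adjusted p = 6.24e-07). They were followed by Mical3 (−0.89), Rock1 (−0.63) and Dpysl3 of the collapsin response mediators (−0.61). The largest rises were those of Cd72, given above, and of Chl1, an adhesion molecule of the L1 family (1.88 ± 0.37, adjusted p = 0.00112), followed by the tyrosine kinases Fyn (0.73) and Fes (0.69), the Slit and Robo GTPase regulator Srgap2 (0.63) and the Rac activator Vav3 (0.55). In females 4 (7.41%) were lower, against 1.45% of all genes, namely Mical2 (−0.98), Enah (−0.81), Arhgef12 (−0.56) and Farp2, a plexin A partner (−0.46). The 4 higher in females (7.41%, against 2.77% of all genes) were Chl1 (1.90), Fes (0.66), Fyn (0.61) and Srgap2 (0.61).

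Markers of the cells of the wall and of leukocytes also differed between PPE and sham aortae. In males 7 of 8 smooth muscle markers, 6 of 7 pericyte markers, 5 of 8 endothelial markers and 4 of 5 fibroblast markers were lower, with median differences of −1.91, −1.08, −0.49 and −0.74. In females the counts were 6 of 8, 4 of 7, 0 of 8 and 2 of 5, with medians of −1.26, −0.71, −0.13 and −0.73. Of the leukocyte markers, 6 of 7 for macrophages, 5 of 6 for neutrophils and 7 of 7 for T and NK cells were higher in males, and 1 of 7, 4 of 6 and 6 of 7 in females. Acta2 alone ran between 17.47 and 18.17 in male PPE and between 18.34 and 18.79 in male sham arrays, so it made up much of the summed smooth muscle signal. The log2 of that sum ran between 17.62 and 18.37 in male PPE and 18.62 and 19.24 in male sham arrays, and between 17.75 and 18.24 in female PPE and 18.68 and 19.10 in female sham arrays. The same sum for T and NK cells was 11.03 to 11.94 in male PPE against 9.39 to 9.57 in male sham, and 11.84 to 12.57 in female PPE against 10.52 to 10.88 in female sham. For macrophages it was 16.32 to 17.50 in male PPE against 14.20 to 16.23 in male sham, and 16.60 to 17.53 in female PPE against 15.99 to 16.24 in female sham. Markers of nerve and Schwann cells were not called in males or females (0 of 6 each by limma, with 2 and 1 at an unadjusted p below 0.05).

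Of the remaining lists, 2 of 4 lymphatic endothelial markers were lower and 1 of 3 mast cell markers was higher in males, and 2 of 3 B cell markers were higher in females. No adipocyte, skeletal muscle or mesothelial marker was called by limma in either cohort, with 1 adipocyte marker in males at an unadjusted p below 0.05 and 0 others. Skeletal muscle signal was uneven: its mean over 4 markers ran between 6.33 and 11.34 in female sham and between 6.16 and 9.91 in female PPE arrays. In males this mean ran between 5.8 and 5.87 in sham and between 5.56 and 8.18 in PPE arrays. Myh4 had a median of 5.48 and a highest value of 12.91 in female sham arrays. The part of the cell type markers in the guidance gene differences was not tested. Male sham 4 had a mean of 11.65 over 5 adipocyte markers, against 6.69 to 8.24 in the other 11 male arrays, and its guidance genes deviated from those of the other male sham arrays by 0.35 on average (root mean square), as did those of male sham 3.

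**Figure D4:**
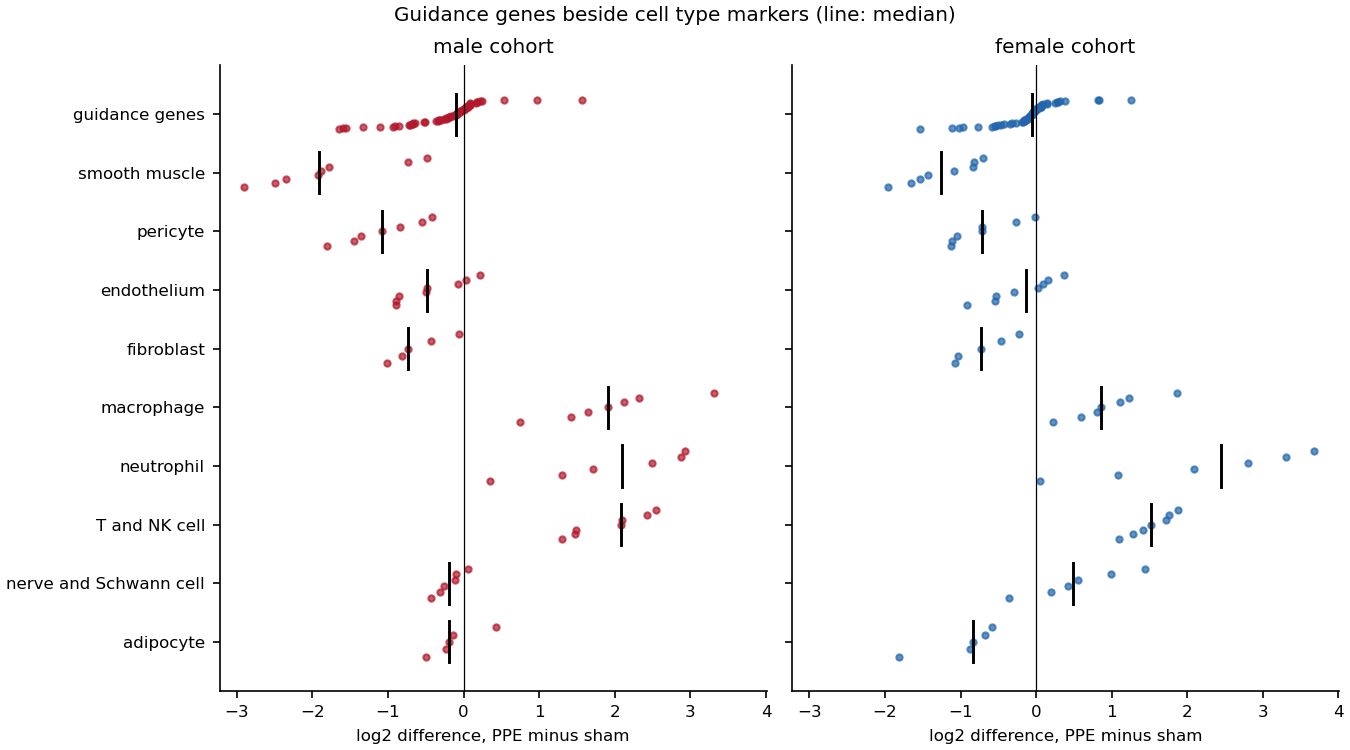
Log2 difference between PPE and sham (x axis) of each guidance gene and of each marker of 9 cell type lists (points), in males on the left and females on the right, with the median of each list as a line. Smooth muscle and pericyte medians lie below 0 and macrophage, neutrophil and T and NK cell medians above 0 in both cohorts, and the guidance genes spread to either side of 0.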

How the data were processed

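RNA (100 ng) from 1 infrarenal aorta per mouse was hybridised to Affymetrix Clariom D (MTA 1.0) arrays, 19 in all, per the labels' protocols. The deposited values are log2 signals per probe set, made by the authors with Transcriptome Analysis Console on an mm10 annotation, per the submitters' processing notes and the labels. The labels used here give neither the version nor the summarisation, nor whether both cohorts were normalized together. No detection call was used.

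Of 65956 probe sets, 30604 had 1 gene symbol in the platform annotation, 2146 several and 33206 none listed. Outdated symbols (813) were updated through RefSeq, and the brightest probe set stood for each of 30141 genes. Group means over all 19 arrays were fitted with limma 3.58.1 (R 4.3.3, lmFit and eBayes), with Benjamini-Hochberg adjustment over all genes and a threshold of 0.05. The contrasts were PPE minus sham in each cohort and the male minus the female response. On simulated data for 30141 genes, 89.6% of changes of 1 log2 unit were recovered in the male and 77.6% in the female comparison, and 53.7% and 41.8% of changes of 0.5. The simulation changed only 200 genes, 67 at each of these 2 sizes, whereas 5922 genes were called in the real male comparison. These shares need not hold for the real comparisons.

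The members and the lists of other genes, markers and motifs were chosen with earlier results of these data known. Up to 10 called members per direction and cohort with the largest differences were named with full statistics and up to 8 with array values; other called members, the brightest member of each family and uncalled partners of a ligand or receptor were named with values. Of the other pathway genes, up to 6 called per direction in males and 4 in females were named. Same-numbered PPE and sham arrays did not deviate together (correlations between −0.321 and 0.24), so the numbers were not used as pairs. Alternatives were quantile normalization, centring on array medians, leaving out dim genes, a robust variance prior with a trend over intensity, averaged probe sets, fitting only the groups compared, array weights, the replicate number as a block and leaving out each array. Leaving out 3 male arrays together was chosen after seeing the data. Promoter windows were RefSeq sequences, found for 55 of the 64 members.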

Additional observations from a re-analysis of the deposited data

Results flagged for a closer look

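In 4 of 56 groups of called members, 1 array lay far from the other arrays of its group by Dixon's test, and chance alone marks about 1 group in 20. Efna5 had 10.02 in male sham 5, while male sham 1 to 4 lay between 9.35 and 9.47. Sema6a had 9.20 in male sham 5, while male sham 1 to 4 lay between 9.72 and 9.76. Ntn1 had 9.20 in female PPE 4, against 8.46 to 8.53 in the other female PPE arrays. Sema4d had 9.61 in female PPE 4, against 10.16 to 10.19 in the others. In each of the 2 female cases the array lay nearer to the female sham arrays than the other PPE arrays did. Female PPE 4 was likewise the PPE array nearest to sham for Sema7a (8.75), Sema3c (9.68), Sema5a (9.13), Efnb2 (12.45) and Plxna4 (8.96). Among the members called in females, only Plxnc1 had another array nearest, female PPE 3 at 9.85. This array therefore differed less from sham across most of the called members.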

How the results depend on the processing

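In males 20 members were called lower and 4 higher, and when 1 array was left out the counts of called members, newly called ones included, ranged between 18 and 21 lower and between 3 and 5 higher. The female counts ranged between 1 and 7 lower and between 1 and 4 higher, and the difference between cohorts stayed at 0 called members. The 5 lower members in females became 8 with quantile normalization, 3 with arrays centred on their medians and 8 without dim genes. They became 11 with array weights and 8 without male sham 4, male sham 5 and male PPE 1. Over all genes, female calls in either direction went from 1273 to 1525, 877, 1450, 3951 and 2454 in these settings, in that order. The member counts and these totals moved in the same direction in each setting. Array weights gave 1 member called for the difference between cohorts, Epha5, where 931 of all genes were called, against 163 in the main fit. With the replicate number as a block, which the data did not show to pair the arrays, 2 members were called higher and 14 lower in males. In females 2 were called higher and 1 lower. Over all genes 3535 were called in males and 639 in females in that fit, against 5922 and 1273. Calls lost in males were those of Ephb4, Sema3e, Sema4b, Sema6a, Sema6c, Sema6d, Sema7a and Unc5c. Those lost in females were the calls of Efnb2, Ntn1, Plxna4, Sema3c and Sema7a. Differences near 0 changed sign in females: Sema6d to −0.03 and Unc5c to −0.04 with quantile normalization, Ephb4 to 0.01 and Sema6a to 0.08 without female sham 1, Sema3e to −0.03 and Sema6d to −0.01 without female sham 3, and Sema3e to −0.05 without female PPE 1. With 1 array left out these genes ranged between −0.20 and 0.01 (Ephb4), −0.18 and 0.08 (Sema6a), −0.05 and 0.03 (Sema3e), and −0.01 and 0.16 (Sema6d). None of these was called. The median difference of all genes moved by less than 0.1 in each setting. Among all called genes, the share that was higher in males was 49.2%, against 60.3% with centred arrays and 57.4% with quantile normalization, and in females 65.6%, against 44.1% with quantile normalization. Averaging probe sets and the intensity trend changed no count of members. The number of arrays, 3 in female sham, limits the female comparison.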
